A study of Mus musculus with 194 samples.

Results

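Activated CD8+ T-cells were compared with L1210 leukemia cells at the same range of time since division, from 2.0 to 5.0 h, for the genes that serve proliferation, metabolism and biosynthesis. A cell entered the comparison when it was not labelled a doublet, had at least 1000 genes above 0 TPM (transcript abundance corrected for length and scaled to a fixed total per library) and carried a recorded time in that range. The rule kept 73 of 194 libraries, namely 41 CD8+ T-cells and 32 L1210 cells. Cells whose sister and cousin labels name each other descend from 1 founding cell and were averaged, which gave 13 CD8+ lineages of 1 to 4 cells and 11 L1210 lineages of 2 to 4 cells. Of the CD8+ lineages 4 were sister pairs without a cousin label, and the labels do not show that these pairs had separate founders. The times just inside the window ran from 2 to 4.85 h in CD8+ T-cells and from 2.05 to 4.98 h in L1210 cells, and the nearest cells outside it lay at 1.98 and 5.15 h in CD8+ T-cells and at 1.79 and 5.07 h in L1210 cells.

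Single cells of both types were grown in lanes of a microfluidic trap array, their divisions were filmed, and each released cell gave 1 Smart-Seq2 library, which copies and amplifies polyadenylated RNA. The CD8+ T-cells were primary splenocytes, pooled from juvenile and adult C57BL/6J mice of both sexes, and the labels tie no library to a mouse. They had been stimulated for 30 h with 5 μg/mL plate-bound antibody against CD3 and 2 μg/mL soluble antibody against CD28, and were grown on the chip with 100 U/mL IL2 and 55 μM 2-mercaptoethanol. L1210 is 1 lymphocytic leukemia line (DBA subline 212) and grew in the device without these additions. Both media were RPMI 1640 with 10% FBS and 1% penicillin-streptomycin. Cell type, mouse strain, stimulation and medium therefore change together and cannot be told apart, and the reference genome is of the C57BL/6J strain, to which only the CD8+ T-cells belong. The p values cover the spread between lineages, not that between mice or cultures.

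A dividing cell copies its genome in S phase and separates it in mitosis, and before each division it must also build new nucleotides, lipids, proteins and ribosomes. Cyclins and cyclin-dependent kinases drive this cycle, inhibitors of these kinases and antiproliferative factors slow it, and Myc raises the transcription of many genes of growth. T-cells switch from rest to fast growth on stimulation, with more glycolysis, amino acid uptake and nucleotide synthesis, whereas a leukemia line grows without a stimulus. Time since division is a clock reading and not a cycle phase, so cells matched in hours can stand at different phases.

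The lineage means of time were 3.50 ± 0.80 h in CD8+ T-cells and 3.38 ± 0.91 h in L1210 cells (SD, n = 13 and 11 lineages, permutation test, 2-sided, p = 0.738). Both types were cut to the same window of hours, so this p value does not show that their times are equal. The CD8+ libraries held fewer detected genes (genes above 0 TPM), 6646 ± 1209.55 against 8162 ± 895 (SD, n = 13 and 11; permutation test, p = 0.00264). TPM keeps no read depth. The study reports quality metrics for each library, which were not used here, and the number of detected genes stands in the place of depth. Rn45s, the precursor of ribosomal RNA, held 21.7% ± 6.14 of a CD8+ lineage's TPM and 21.5% ± 2.80 of an L1210 lineage's (SD, n = 13 and 11; permutation test, p = 0.902). The summed levels of defining markers went with the labels. The summed level of 10 T-cell markers ran from 1326 to 6284 TPM in the CD8+ T-cells and from 0 to 79.6 TPM in the L1210 cells, and that of 10 B-lineage markers from 582 to 5071 TPM in the L1210 cells and from 0 to 283 TPM in the CD8+ T-cells. Of these B-lineage markers Cd79b was above 0 in 19 of the 41 CD8+ T-cells, Cd79a in 5 and Ms4a1 in 1, while Vpreb1, Vpreb3, Igll1, Ebf1, Pax5 and Blnk were listed at 0 in all 41. Cd4 was listed at 0 in all 73 cells and Foxp3, a marker of regulatory T-cells, was above 0 in 4 CD8+ T-cells, at up to 33.9 TPM, and in 1 L1210 cell. At least 1 of the T-cell markers was above 0 in 31 of the 32 L1210 cells. At least 1 of 7 myeloid markers was above 0 in 18 of the 32 L1210 cells, with sums of up to 82.9 TPM. The same held for 2 of the 41 CD8+ T-cells, with sums of up to 1.3 TPM. The 6 erythroid markers summed to at most 3.68 TPM in any CD8+ T-cell and 10.96 TPM in any L1210 cell. Of 4 natural killer markers 2 were above 0 in at least 1 CD8+ T-cell. Nkg7, which cytotoxic T-cells also use, was 1 of these and was above 0 in 41 of the 41, while Ncr1 was listed at 0 in all. In L1210 cells 2 of the 4 markers were above 0 in any cell, with sums of up to 14.5 TPM in 2 cells.

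Expression was taken as ln(TPM+1) and averaged over the cells of a lineage, and differences are CD8+ minus L1210 on this natural log scale, which understates the change of low genes. Levels are also given in TPM, as the exponential of a lineage's mean less 1. Of 11272 genes tested with limma, 1010 (8.96%) were higher in CD8+ T-cells and 4101 (36.4%) were higher in L1210 cells at a Benjamini-Hochberg adjusted p under 0.05, so that 45.3% passed in either direction and 19.8% of those were higher in CD8+ T-cells. Without adjustment 53.5% had a p under 0.05. The median difference over all genes was -0.43, and list medians below are given relative to it. With the lineage's detected genes as a covariate the backgrounds became 10.8 and 15.1% and the split 41.6%, and over the 40 cells with 6500 to 8500 detected genes, where the types overlap, they became 7.32 and 16.8% with a split of 30.3%. These are called the fit adjusted for detected genes and the fit of like libraries below. Genes were grouped in 24 lists, with 846 tested members, and described against these backgrounds.

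**Figure D1:**
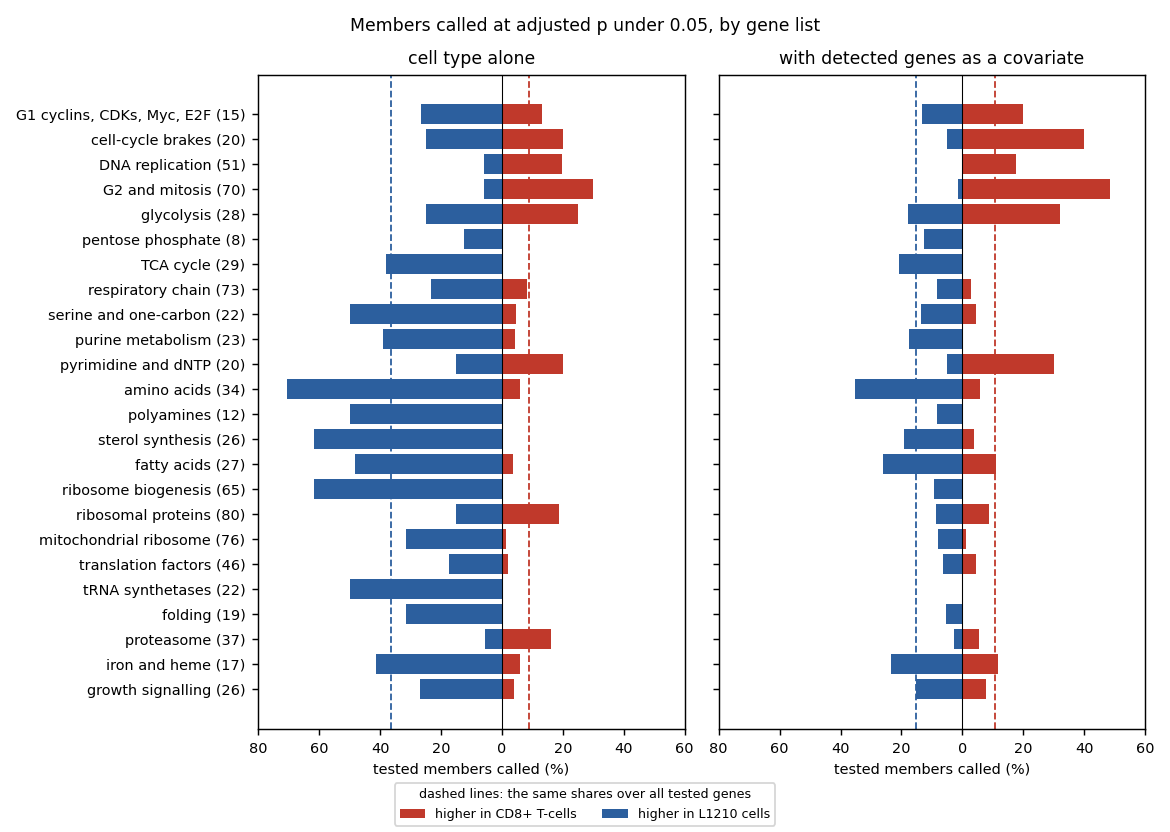
Share of the tested members of each list (number in parentheses) that was higher in CD8+ T-cells (right, red) or in L1210 cells (left, blue) at an adjusted p under 0.05, in the fit on cell type alone and with detected genes as a covariate. Dashed lines give the shares over all 11272 genes, 8.96 and 36.4% on the left and 10.8 and 15.1% on the right; the G2 and mitosis list exceeds the red line in both panels, and the long blue bars of ribosome biogenesis and tRNA synthetases shorten from 40 of 65 and 11 of 22 genes to 6 and 0 genes.

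The drivers of G1 passed in both directions. Of 15 tested cyclins, kinases and transcription factors that carry cells into S phase, 2 (13.3%) were higher in CD8+ T-cells. Another 4 (26.7%) were higher in L1210 cells. The backgrounds were 8.96 and 36.4%, and the list median stood 0.47 above that of all genes. Myc, the growth regulator, stood at 3.92, 56.5 and 206 TPM in the lowest, median and highest CD8+ lineage and at 88.8, 260 and 778 TPM in L1210 lineages. Only the upper CD8+ lineages reached the L1210 range, and Myc differed by -1.75 ± 0.32 (SE; adjusted p = 4.78e-05). Myb, a transcription factor of immature blood cells, was above 0 in 9 of the 41 CD8+ libraries and 29 of the 32 L1210 libraries and differed by -2.04 ± 0.35 (adjusted p = 1.33e-05). E2f2, which activates genes of S phase, had 1.89, 13.8 and 75.1 TPM in CD8+ lineages against 0, 2.27 and 10.1 TPM in L1210 lineages, a difference of 1.32 ± 0.36 (adjusted p = 0.00329) that was 1.36 with an adjusted p of 0.0613 over like libraries. Its dimer partner Tfdp1 was also higher in CD8+ T-cells, by 1.04 ± 0.30 (adjusted p = 0.00585), and Cdc25a and E2f3 were higher in L1210 cells, by 1.02 and 0.98.

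The D-type cyclins and the G1 kinases did not pass the test. The difference was 0.09 for Ccnd2 (95% interval -0.38 to 0.55), 0.26 for Ccnd3 (-0.18 to 0.70), 0.06 for Cdk2 (-0.47 to 0.59), 0.16 for Cdk4 (-0.13 to 0.45) and 0.04 for Cdk6 (-0.60 to 0.67). Ccne1, the partner of Cdk2, had a difference of 0.86 with an adjusted p of 0.0958, which became 1.83 (adjusted p = 0.00215) in the fit adjusted for detected genes and 1.43 (adjusted p = 0.0118) over like libraries. Ccnd3 passed over like libraries, at 0.62 (adjusted p = 0.00576). Ccnd1 was above 0 in 5 CD8+ and 7 L1210 libraries, and Mycn, above 0 in 2 CD8+ and 0 L1210 libraries, was too rare to test.

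Among 20 inhibitors and antiproliferative genes, 4 (20%) were higher in CD8+ T-cells and 5 (25%) were higher in L1210 cells, beside backgrounds of 8.96 and 36.4%. Cdkn2b, which encodes the kinase inhibitor p15, was the widest apart. It was detected in 1 of the 41 CD8+ libraries and 27 of the 32 L1210 libraries, with 0, 0 and 1.83 TPM in the lowest, median and highest CD8+ lineage and 2.75, 44.3 and 152 TPM in L1210 lineages. The 2 ranges did not overlap (over all genes, 3.34% had L1210 lineages wholly above), and the difference was -3.32 ± 0.34 (adjusted p = 8.64e-10). In the other direction Cdkn1b, which encodes p27, and the antiproliferative genes Btg1 and Btg2 were higher in CD8+ T-cells, by 0.86 ± 0.30 (adjusted p = 0.0182), 1.14 ± 0.33 (adjusted p = 0.00519) and 0.90 ± 0.36 (adjusted p = 0.0394). These 3 genes were low, at medians of 2.73, 2.72 and 3.89 TPM over CD8+ lineages, and over like libraries Cdkn1b and Btg2 no longer passed, with adjusted p values of 0.109 and 0.0895. Cdkn2c was higher in L1210 cells by 0.73 (adjusted p = 0.0272), a call lost in the fit adjusted for detected genes (-0.24, adjusted p = 0.598) and turned to 0.24 (adjusted p = 0.686) at 2.0 to 3.5 h. Tob1, an antiproliferative gene, was higher in L1210 cells by 0.85 ± 0.25 (adjusted p = 0.00637, and 0.432 in the fit adjusted for detected genes). Trp53 had a difference of -0.07 (95% interval -0.51 to 0.37), Cdkn1a, its target, had 1.43 (adjusted p = 0.0891, and 2.37 with 0.0322 in the fit adjusted for detected genes), and Cdkn2a was above 0 in only 2 L1210 cells and was not tested. The list counts, 4 and 5 on cell type alone, were 8 and 1 in the fit adjusted for detected genes and 4 and 1 over like libraries. They were 5 and 1 at 2.0 to 3.5 h and 0 and 5 at 3.5 to 5.0 h. The list median stood 0.52 and 0.49 above that of all genes in these windows. At 3.5 to 5.0 h Cdkn1b, Btg1 and Btg2 had 0.30, 0.61 and 0.57 (adjusted p = 0.549, 0.185 and 0.288). No gene of the list passed the test of dependence on hours given below.

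Genes of DNA replication lay higher in CD8+ T-cells than the table as a whole. Of 51 tested, 10 (19.6%) were higher in CD8+ T-cells and 3 (5.88%) were higher in L1210 cells, beside backgrounds of 8.96 and 36.4%. The list median stood 0.73 above that of all genes. Lig1, which joins the fragments of the lagging strand, had 43.01, 75.4 and 150 TPM in the lowest, median and highest CD8+ lineage and 2.87, 22.1 and 60.6 TPM in L1210 lineages. The lowest CD8+ lineages fell within the upper L1210 range, and the difference was 1.28 ± 0.25 (adjusted p = 0.000116). The sliding clamp Pcna, the licensing inhibitor Gmnn, the histone mRNA binding protein Slbp and the helicase genes Mcm7 and Cdc45 were higher in CD8+ T-cells by 0.80 to 0.88. Gins1, of the replicative helicase, was higher by 1.07 ± 0.41 (adjusted p = 0.0347, and 0.0642 in the fit adjusted for detected genes). Orc5, Gins2 and the licensing factor Cdt1 were higher in L1210 cells by 1.00, 0.98 and 0.95, and neither Orc5 nor Gins2 passed in the fit adjusted for detected genes (adjusted p = 0.110 and 0.401). Gins2 turned to 0.33 (adjusted p = 0.635) at 2.0 to 3.5 h and to 0.09 (adjusted p = 0.913) over like libraries. The list counts were 9 and 0 in the fit adjusted for detected genes and 17 and 0 over like libraries. They were 12 and 0 at 2.0 to 3.5 h and 3 and 2 at 3.5 to 5.0 h. The list median stood 0.83 and 0.55 above that of all genes in these windows.

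Mitotic genes were the list with the largest share higher in CD8+ T-cells, 21 of 70 (30.0%), with 4 higher in L1210 cells and a list median 0.84 above that of all genes. Ckap2l, a spindle protein, was above 0 in 41 of the 41 CD8+ libraries and 20 of the 32 L1210 libraries. Its lineages had 14.6, 37.3 and 76.3 TPM in CD8+ T-cells and 0, 2.84 and 26.8 TPM in L1210 cells, a difference of 2.14 ± 0.33 (adjusted p = 3.41e-06). The ranges overlapped only at their ends. Nusap1, which bundles spindle microtubules, differed by 2.06 ± 0.40 (adjusted p = 8.36e-05). Top2a, the topoisomerase that untangles sister chromosomes, was chosen after its values were seen, and had 41.3, 135 and 320 TPM in CD8+ lineages against 5.45, 14.7 and 122 TPM in L1210 lineages (difference 1.71 ± 0.33, adjusted p = 9.59e-05). The chromosomal passenger genes Incenp, Aurkb and Birc5, the condensin genes Smc2, Smc4 and Ncaph, the kinetochore genes Ndc80, Spc24 and Spc25, the kinase Cdk1 and the mitotic transcription factor Foxm1 were higher in CD8+ T-cells by 0.68 to 1.53, and the proliferation marker Mki67 by 0.72 ± 0.27 (adjusted p = 0.0267).

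The 4 genes higher in L1210 cells were Pttg1, Cdc20, Bub1b and Bub1. Pttg1, which encodes securin, had 0, 11.2 and 36.9 TPM in CD8+ lineages and 36.5, 217 and 297 TPM in L1210 lineages. The highest CD8+ lineage met the lowest L1210 lineage, and Pttg1 differed by -2.76 ± 0.33 (adjusted p = 2.64e-08). Cdc20, the activator that triggers the destruction of securin, differed by -1.24 ± 0.33 (adjusted p = 0.00274), a call lost in the fit adjusted for detected genes (-0.61, adjusted p = 0.233). The spindle checkpoint genes Bub1b and Bub1 were higher in L1210 cells by 1.15 and 0.83. Pttg1 was the 1 of these that passed in the fit adjusted for detected genes or over like libraries. The list counts, 21 and 4 on cell type alone, were 34 and 1 in the fit adjusted for detected genes and 27 and 1 over like libraries. At 2.0 to 3.5 h (33 cells) they were 28 and 2, beside backgrounds of 7.89 and 13.6%. At 3.5 to 5.0 h (41 cells) they were 4 and 1, beside 4.18 and 24%. The list median stood 0.96 and 0.83 above that of all genes in these windows. No mitotic gene passed the test of dependence on hours given below.

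**Figure D2:**
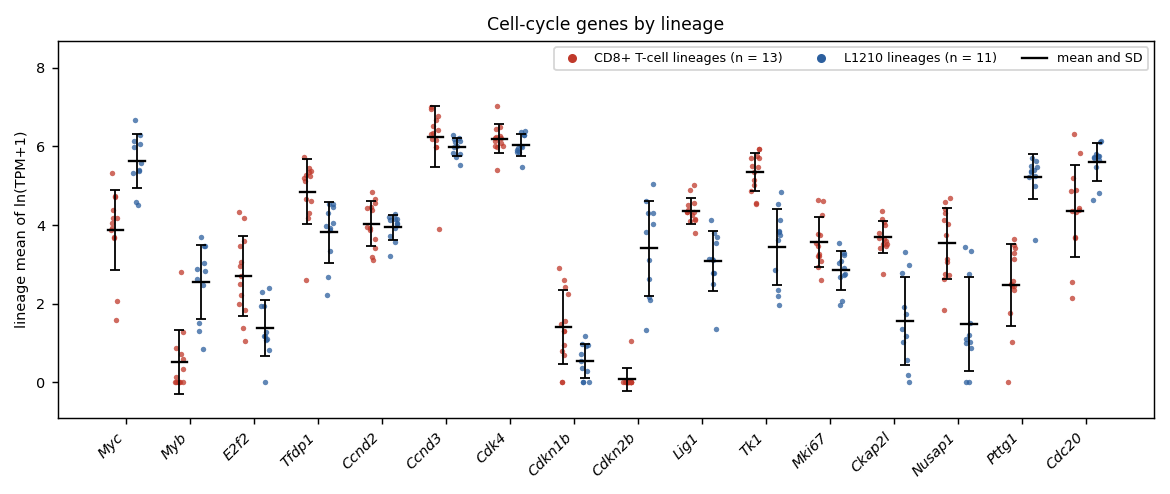
Mean ln(TPM+1) of each lineage for 16 cell-cycle genes, with CD8+ T-cell lineages in red (n = 13), L1210 lineages in blue (n = 11) and bars for the mean and SD. Cdkn2b sits at or near 0 in CD8+ lineages and between 2.75 and 152 TPM in L1210 lineages, Ccnd2 and Cdk4 overlap, and Ckap2l, Nusap1, Lig1 and Tk1 are higher in CD8+ T-cells.

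Mitotic genes as a class often carry CCAAT boxes and a TTTGAA element near their start, which bind factors that time transcription to late in the cycle. The 250 bases before the start of transcription (RefSeq, GRCm38.p6) were searched for both on either strand. Of the 58 mitotic genes found in the promoter table, 44 (75.9%) held CCAAT and 24 (41.4%) held TTTGAA, beside 37.5 and 18.3% of all 27025 genes in it. Both were found in genes of either direction. CCAAT was found in 10 of 15 genes higher in CD8+ T-cells, in 3 of 4 higher in L1210 cells and in 31 of 39 not called, and TTTGAA in 9, 1 and 14 of them. The stretches of Ckap2l (chr2:129297213-129297462, minus strand) and Top2a (chr11:99024190-99024439, minus strand), higher in CD8+ T-cells, are printed. Beside them is that of Cdc20 (chr4:118437344-118437593, minus strand), higher in L1210 cells on cell type alone. That call of Cdc20 was lost in the fit adjusted for detected genes (-0.61, adjusted p = 0.233) and over like libraries (-0.59, adjusted p = 0.181). Capitals mark CCAAT and TTTGAA, or their reverse complements ATTGG and TTCAAA.
Ckap2l: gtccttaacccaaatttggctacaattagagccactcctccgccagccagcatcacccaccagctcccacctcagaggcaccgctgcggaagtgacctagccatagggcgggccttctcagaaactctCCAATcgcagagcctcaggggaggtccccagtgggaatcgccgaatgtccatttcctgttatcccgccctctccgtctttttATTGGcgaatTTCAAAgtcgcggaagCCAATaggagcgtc
Top2a: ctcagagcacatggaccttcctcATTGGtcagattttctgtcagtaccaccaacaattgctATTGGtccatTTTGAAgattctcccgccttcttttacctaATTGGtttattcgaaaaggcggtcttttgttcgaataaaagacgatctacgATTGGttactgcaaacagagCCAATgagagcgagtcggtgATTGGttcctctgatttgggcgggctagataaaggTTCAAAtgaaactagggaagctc
Cdc20: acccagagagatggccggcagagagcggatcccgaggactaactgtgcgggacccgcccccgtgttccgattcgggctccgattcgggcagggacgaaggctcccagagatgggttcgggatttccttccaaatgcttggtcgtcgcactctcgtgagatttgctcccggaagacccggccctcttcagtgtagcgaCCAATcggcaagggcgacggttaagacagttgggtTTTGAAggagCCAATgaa
Ckap2l held 3 and 1 matches to CCAAT and TTTGAA, Top2a 6 and 2, and Cdc20 2 and 1, and in all 3 the last match of each lies near the start. The stretches of Nusap1, higher in CD8+ T-cells, and Pttg1, higher in L1210 cells, held 0 matches to either element and are not printed.

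Of 28 tested genes of glycolysis 7 were higher in CD8+ T-cells and 7 were higher in L1210 cells, the latter a share below the background of 36.4%. Slc2a3, the high-affinity glucose transporter, had the largest difference of all the lists. It was above 0 in 16 of the 41 CD8+ libraries and 32 of the 32 L1210 libraries, with 0, 1.42 and 12.3 TPM in the lowest, median and highest CD8+ lineage against 457, 912 and 2588 TPM in L1210 lineages. No lineage of either type came near the other, and the difference was -5.95 ± 0.28 (adjusted p = 1.05e-18), 384-fold on the TPM+1 scale. Slc2a1, the basal glucose transporter, had a difference of -0.18 (95% interval -0.94 to 0.57), and the hexokinases Hk1 and Hk2 had -0.63 (adjusted p = 0.0688) and -0.54 (adjusted p = 0.134). Hk2 had 0.20 (adjusted p = 0.708) at 2.0 to 3.5 h and passed at 3.5 to 5.0 h, at -1.40 (adjusted p = 0.0107).

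The lactate and pyruvate carrier Slc16a1 had 0.832, 8.97 and 29.1 TPM in CD8+ lineages and 17.1, 83.4 and 121 TPM in L1210 lineages (difference -2.07 ± 0.34, adjusted p = 7.54e-06), while Slc16a3, the export form, was higher in CD8+ T-cells by 1.04. The phosphofructokinases Pfkm and Pfkl, the regulatory enzymes Pfkfb3 and Pfkfb4 and the pyruvate dehydrogenase kinase Pdk1 were higher in L1210 cells by 0.58 to 1.92. The enzymes Gapdh, Pgk1, Eno1 and Ldha, which finish the pathway, were higher in CD8+ T-cells by 0.43, 0.67, 0.60 and 0.58. Ldha, which makes lactate, had 1785, 2620 and 4520 TPM in CD8+ lineages and 1301, 1488 and 1704 TPM in L1210 lineages. The lowest CD8+ lineage lay above the highest L1210 lineage (over all genes, 1.36% had CD8+ lineages wholly above), and the difference was 0.58 ± 0.09 (adjusted p = 4.48e-06). Genes such as Gapdh, Eno1 and Ldha share reads with processed pseudogenes, so their split by the estimation is uncertain.

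Ldhb, the other subunit of lactate dehydrogenase, was above 0 in 17 of 41 CD8+ T-cells and listed at 0 in all 32 L1210 cells (difference 1.28 ± 0.31, adjusted p = 0.00115), and over like libraries it had an adjusted p of 0.0912. Hif1a, the transcription factor that raises glycolytic genes when oxygen is low, had 1.35, 29.9 and 94.2 TPM in CD8+ lineages against 0, 1.96 and 12.5 TPM in L1210 lineages, a difference of 2.06 ± 0.37 (adjusted p = 3.56e-05). In the fit adjusted for detected genes the counts were 9 and 5.

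**Figure D3:**
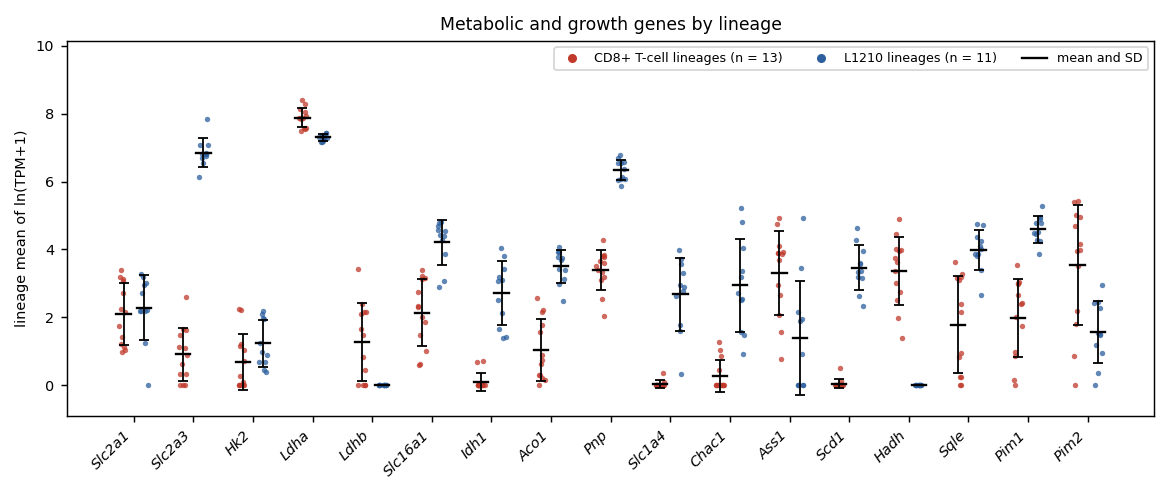
Mean ln(TPM+1) of each lineage for 17 metabolic and growth genes, with CD8+ T-cell lineages in red (n = 13), L1210 lineages in blue (n = 11) and bars for the mean and SD. Slc2a3, Pnp, Idh1, Scd1 and Pim1 separate with L1210 lineages above, Ldha and Hadh with CD8+ lineages above, and Slc2a1 and Hk2 overlap.

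In the pentose phosphate pathway 1 of 8 genes passed, the lactonase Pgls, higher in L1210 cells by 1.05 ± 0.23 (adjusted p = 0.000334). Of 29 genes of the TCA cycle and pyruvate entry, 11 were higher in L1210 cells (37.9%, near the background of 36.4%) and 0 in CD8+ T-cells. The cytosolic isocitrate dehydrogenase Idh1 was above 0 in 2 of the 41 CD8+ libraries and 27 of the 32 L1210 libraries. Its CD8+ lineages had 0, 0 and 1.06 TPM and its L1210 lineages 3.04, 20.5 and 55.6 TPM, without overlap (difference -2.60 ± 0.29, adjusted p = 4.93e-09). Aco1, the cytosolic aconitase that doubles as an iron sensor, differed by -2.46 ± 0.32 (adjusted p = 1.33e-07), and Idh2, the mitochondrial counterpart of Idh1, by -2.16. The list counts were 0 and 6 in each of the fits adjusted for detected genes and over like libraries.

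Of 73 genes of the respiratory chain, 6 (8.22%) were higher in CD8+ T-cells, near the background of 8.96%. A further 17 (23.3%) were higher in L1210 cells, below the background of 36.4%. Ndufa9 and Ndufb7, of the NADH dehydrogenase, were higher in CD8+ T-cells by 0.98 ± 0.22 (adjusted p = 0.000559) and 0.73 ± 0.27 (adjusted p = 0.0263), whereas Ndufs1 of the same complex was higher in L1210 cells by 1.04 ± 0.31 (adjusted p = 0.00765) and Uqcrb of the cytochrome c reductase by 1.06 ± 0.24 (adjusted p = 0.000591). In the fit adjusted for detected genes 2 and 6 remained as counts, and Ndufs1 no longer passed (adjusted p = 0.387).

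Of 23 purine genes 9 (39.1%, near the background of 36.4%) were higher in L1210 cells and 1 was higher in CD8+ T-cells. Pnp, the purine nucleoside phosphorylase, had 6.68, 33.01 and 71.3 TPM in the lowest, median and highest CD8+ lineage against 359, 585 and 882 TPM in L1210 lineages. Every L1210 lineage lay above every CD8+ lineage, and the difference was -2.95 ± 0.21 (adjusted p = 1.12e-13). Adssl1, an adenylosuccinate synthase, was above 0 in 3 CD8+ T-cells and 28 L1210 cells and differed by -2.74 ± 0.31 (adjusted p = 6.62e-09). The salvage genes Aprt and Adk and the synthesis genes Impdh1, Pfas and Ppat were higher in L1210 cells by 0.84 to 1.49, and Hprt, a salvage enzyme as well, was higher in CD8+ T-cells by 0.54 ± 0.16 (adjusted p = 0.00786, and 0.0517 in the fit adjusted for detected genes). In the fit adjusted for detected genes 4 purine genes were higher in L1210 cells and 0 in CD8+ T-cells.

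Of 20 pyrimidine and deoxynucleotide genes 4 (20%) were higher in CD8+ T-cells and 3 (15%) were higher in L1210 cells, beside backgrounds of 8.96 and 36.4%. Tk1, the thymidine kinase of S phase, had 92.9, 237 and 378 TPM in CD8+ lineages and 6.23, 41.7 and 127 TPM in L1210 lineages. The ranges overlapped slightly, and the difference was 1.89 ± 0.29 (adjusted p = 2.02e-06). Rrm2, the ribonucleotide reductase subunit, and Dut, the dUTPase, were higher in CD8+ T-cells by 0.79 and 0.84, as was Samhd1, which breaks deoxynucleotides down, by 1.70 ± 0.35 (adjusted p = 0.000218). Dctd, the dCMP deaminase, and Dctpp1, a pyrophosphatase that clears modified nucleotides, were higher in L1210 cells by 1.68 ± 0.40 (adjusted p = 0.00108) and 0.99 ± 0.26 (adjusted p = 0.00272), the former not in the fit adjusted for detected genes (adjusted p = 0.116).

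In serine and folate metabolism 11 of 22 genes (50%, background 36.4%) were higher in L1210 cells and 1 (4.55%, background 8.96%) in CD8+ T-cells. Fpgs, which adds the glutamate tail that keeps folates in the cell, had 0, 4.74 and 38.7 TPM in CD8+ lineages and 9.86, 76.4 and 105.7 TPM in L1210 lineages (difference -2.31 ± 0.35, adjusted p = 1.95e-06). Ggh, which removes that tail, was above 0 in 15 CD8+ T-cells and listed at 0 in all 32 L1210 cells (1.05 ± 0.33, adjusted p = 0.0105, and 0.0709 over like libraries). The 2 genes of the folate tail had differences of opposite sign, but Ggh entered the test only through the CD8+ T-cells. The folate carrier Slc19a1 and the glycine cleavage gene Gcsh were higher in L1210 cells by 1.37 and 1.94 ± 0.30 (adjusted p = 2.2e-06 for Gcsh). Mthfd2 and Shmt2, the mitochondrial folate enzymes, were higher in L1210 cells by 0.97 ± 0.21 (adjusted p = 0.000459) and 0.55 ± 0.18 (adjusted p = 0.0111), and neither passed in the fit adjusted for detected genes (adjusted p = 0.0511 and 0.117). Phgdh, the first enzyme of serine synthesis, had a difference of 0.10 (95% interval -0.23 to 0.43). The list counts, CD8+ first, were 1 and 3 in the fit adjusted for detected genes. These are 4.55 and 13.6%, both below the backgrounds of 10.8 and 15.1%.

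Amino acid synthesis and transport was the list with the largest share higher in L1210 cells, 24 of 34 (70.6%), with 2 higher in CD8+ T-cells. It was also the only 1 of the 24 lists whose lineage means did not overlap, with 1.24 to 2.74 in CD8+ lineages and 2.82 to 3.69 in L1210 lineages on the ln(TPM+1) scale. Chac1, which degrades glutathione and is a target of the amino acid response, was above 0 in 4 of the 41 CD8+ libraries and 25 of the 32 L1210 libraries. Its lineages had 0, 0 and 2.54 TPM in CD8+ T-cells and 1.52, 14.2 and 182 TPM in L1210 cells (difference -2.66 ± 0.38, adjusted p = 6.72e-07). Slc1a4, a carrier of small neutral amino acids, was above 0 in 2 CD8+ T-cells and 27 L1210 cells and differed by -2.65 ± 0.30 (adjusted p = 9.34e-09). The leucine carrier Slc7a5 and its partner Slc3a2, the glutamine carriers Slc38a1, Slc38a2 and Slc1a5, the transaminases Gpt2, Got1, Got2, Bcat1 and Bcat2 and the proline genes Aldh18a1 and Pycrl were all higher in L1210 cells, by 0.67 to 2.43.

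Arginine synthesis showed both directions. Ass1, which makes argininosuccinate, had 1.16, 46.2 and 136 TPM in CD8+ lineages and 0, 1.54 and 135 TPM in L1210 lineages, a difference of 1.92 ± 0.52 (adjusted p = 0.00314) with wide overlap that had an adjusted p of 0.0877 over like libraries. Asl, which splits argininosuccinate, was higher in L1210 cells by 1.86. Slc36a4, a lysosomal and surface carrier, was above 0 in 15 CD8+ T-cells and listed at 0 in all 32 L1210 cells (0.84 ± 0.22, adjusted p = 0.00244). The list counts were 2 and 12 in the fit adjusted for detected genes and 0 and 11 over like libraries, 35.3 and 32.4% of members higher in L1210 cells beside backgrounds of 15.1 and 16.8%.

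Asns, the asparagine synthetase, also varied with the hours, for which it is named. It had 0, 6.20 and 86.3 TPM in the lowest, median and highest CD8+ lineage and 59.6, 102.7 and 160 TPM in L1210 lineages (difference -2.61 ± 0.45, adjusted p = 1.56e-05). Within CD8+ T-cells the level was 1.97 to 4.47 on the ln(TPM+1) scale in the 6 lineages with a mean time under 3.5 h and 0 to 3.03 in the 7 later ones, and the 4 lineages at 0 had mean times of 3.87 to 4.75 h. The early CD8+ lineages overlapped the L1210 lineages and the late ones did not. Genes of the amino acid response, Asns and Chac1 among them, carry composite elements bound by ATF4 and C/EBP factors, here searched as TGATGNAA on either strand of the 250 bases before the start. It was found in 5 of 25 amino acid genes and in 3 of 14 tRNA synthetase genes in the promoter table, beside 3.91% of all 27025 genes. The stretches of Asns (chr6:7693210-7693459, minus strand) and Chac1 (chr2:119350992-119351241, plus strand) are printed with their 1 match each in capitals.
Asns: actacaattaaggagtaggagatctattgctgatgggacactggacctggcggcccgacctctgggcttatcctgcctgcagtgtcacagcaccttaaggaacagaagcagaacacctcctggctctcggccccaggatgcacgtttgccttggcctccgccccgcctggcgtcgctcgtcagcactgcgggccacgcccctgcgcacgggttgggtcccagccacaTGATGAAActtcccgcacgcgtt
Chac1: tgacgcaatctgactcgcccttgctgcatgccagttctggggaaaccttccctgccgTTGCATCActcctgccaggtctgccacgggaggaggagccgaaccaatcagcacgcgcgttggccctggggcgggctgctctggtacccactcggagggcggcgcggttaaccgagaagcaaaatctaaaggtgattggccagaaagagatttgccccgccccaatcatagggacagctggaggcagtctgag
In Asns the match lies near the start and in Chac1 it lies farther upstream, on the opposite strand.

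Polyamine and hypusine genes had 6 of 12 (50%, background 36.4%) higher in L1210 cells. Oaz2, an antizyme that lowers ornithine decarboxylase, had 0, 3.81 and 42.9 TPM in CD8+ lineages and 22.5, 90.2 and 142 TPM in L1210 lineages (difference -2.69 ± 0.36, adjusted p = 1.93e-07). Odc1, the decarboxylase itself, had a difference of -0.40 (95% interval -1.01 to 0.21). Dhps, which makes hypusine in eIF5A, differed by -1.46 ± 0.37 (adjusted p = 0.00166), and not in the fit adjusted for detected genes (adjusted p = 0.112). There 1 of the 12 passed (8.33%, below the background of 15.1%).

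Of 26 genes of sterol synthesis and uptake 16 (61.5%) were higher in L1210 cells and 0 in CD8+ T-cells. Sqle, the squalene epoxidase, had 0, 7.54 and 36.5 TPM in the lowest, median and highest CD8+ lineage and 13.5, 55.0 and 114 TPM in L1210 lineages. The upper CD8+ lineages overlapped the lower L1210 lineages, and the difference was -2.20 ± 0.42 (adjusted p = 7.1e-05). Sc4mol (Msmo1), a demethylase of the pathway, differed by -2.09 ± 0.38 (adjusted p = 3.63e-05). The regulators Srebf2 and Scap were higher in L1210 cells by 1.03 and 1.12. Hmgcs1, at the head of the pathway, differed by -1.38 ± 0.46 (adjusted p = 0.0156), and by -0.38 (adjusted p = 0.611) in the fit adjusted for detected genes, where the list counts were 1 and 5 (19.2% higher in L1210 cells, background 15.1%). Over like libraries 4 were higher in L1210 cells (15.4%, background 16.8%), and at 2.0 to 3.5 h 2 were (7.69%, background 13.6%). Sqle and Sc4mol passed in each of these 3 settings.

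Among 27 fatty acid genes, 13 (48.1%, background 36.4%) were higher in L1210 cells and 1 (3.7%, background 8.96%) in CD8+ T-cells. Scd1, the stearoyl-CoA desaturase, was above 0 in 3 of the 41 CD8+ libraries and 31 of the 32 L1210 libraries, with 0, 0 and 0.677 TPM in CD8+ lineages and 9.44, 27.9 and 101.3 TPM in L1210 lineages, without overlap (difference -3.41 ± 0.25, adjusted p = 3.38e-13). Hadh, a dehydrogenase of mitochondrial fatty acid oxidation, was above 0 in 35 of 41 CD8+ T-cells, with 3.04, 36.8 and 133 TPM over lineages, and was listed at 0 in all 32 L1210 cells (difference 3.36 ± 0.32, adjusted p = 1.32e-10). Acadm, the medium-chain dehydrogenase that acts before it, had 0.426, 15.1 and 26.9 TPM in CD8+ lineages and 26.6, 90.9 and 162 TPM in L1210 lineages (-2.04 ± 0.30, adjusted p = 1.05e-06), and Cpt1a, Cpt2, Acads and Hadhb were higher in L1210 cells by 0.68 to 1.72. Of the synthesis genes Acly and Acaca were higher in L1210 cells by 1.97 and 1.35, and Fasn had -0.60 (95% interval -1.22 to 0.02). The list counts were 3 and 7 in the fit adjusted for detected genes (11.1 and 25.9%, beside backgrounds of 10.8 and 15.1%).

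Ribosome biogenesis moved in 1 direction, with 40 of 65 genes (61.5%) higher in L1210 cells and 0 in CD8+ T-cells. Polr1b, a subunit of RNA polymerase I, had 1.18, 5.79 and 41.2 TPM in CD8+ lineages and 16.6, 39.6 and 60.1 TPM in L1210 lineages (difference -1.72 ± 0.32, adjusted p = 4.46e-05). Wdr75, of the early processing complex, differed by -1.59 ± 0.30 (adjusted p = 5.07e-05), and the rest of the 40 by 0.56 to 1.40 in the same direction. The abundant nucleolar proteins were among the 25 that did not pass, with a difference of 0.04 for Npm1 (95% interval -0.15 to 0.22) and -0.33 for Ncl (-0.63 to -0.03, adjusted p = 0.0669). In the fit adjusted for detected genes 6 of the 65 passed (9.23%, beside a background of 15.1%), and over like libraries 6 passed as well (background 16.8%).

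The ribosomal proteins, at a mean of 7.35 in CD8+ and 7.37 in L1210 lineages on the ln(TPM+1) scale, had 15 of 80 genes higher in CD8+ T-cells and 12 higher in L1210 cells. Rps4x had 4771, 6424 and 8873 TPM in CD8+ lineages and 2929, 3675 and 4078 TPM in L1210 lineages, without overlap (difference 0.55 ± 0.07, adjusted p = 2.96e-08). Rpl22l1, the paralog of Rpl22, was higher in CD8+ T-cells by 1.18 ± 0.20 (adjusted p = 1.26e-05), and Rpl22 itself was higher in L1210 cells by 0.44. Rps21 and Rpl34 were higher in L1210 cells by 0.73 ± 0.10 (adjusted p = 6.17e-07) and 0.89 ± 0.32 (adjusted p = 0.0258, and 0.139 in the fit adjusted for detected genes). Median-ratio scaling moved the counts from 15 and 12 to 22 and 4, and ribosomal protein genes share reads with many pseudogenes, so single members are uncertain. Of 76 genes of the mitochondrial ribosome 24 (31.6%, below the background of 36.4%) were higher in L1210 cells. They were led by Mrpl39 at -1.79 ± 0.27 (adjusted p = 2.23e-06) and Mrpl52 at -1.54 ± 0.32 (adjusted p = 0.000254). The 1 higher in CD8+ T-cells was Mrpl18, at 0.39 (adjusted p = 0.048). In the fit adjusted for detected genes the counts were 6 and 1, the 1 being another gene, since Mrpl18 no longer passed (0.32, adjusted p = 0.236).

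Among 46 translation factors 8 were higher in L1210 cells and 1 in CD8+ T-cells, both shares below the background. Eif4ebp1, the repressor of cap binding that mTORC1 inactivates, had 0, 64.9 and 210 TPM in CD8+ lineages and 163, 330 and 433 TPM in L1210 lineages (difference -2.43 ± 0.46, adjusted p = 7.05e-05), and its partner Eif4e was higher in L1210 cells by 0.59. Eif1a, a factor of start codon scanning, differed by -1.79 ± 0.33 (adjusted p = 4.99e-05). Eif2s1, the regulated subunit of eIF2, was higher in CD8+ T-cells by 0.65 ± 0.20 (adjusted p = 0.0077). Of 22 cytosolic tRNA synthetases 11 (50%, background 36.4%) were higher in L1210 cells, with Aars and Lars at -1.35 each (adjusted p = 0.000745 and 0.00164). None of the 22 passed in the fit adjusted for detected genes, where Aars had an adjusted p of 0.0559, whereas 7 were higher in L1210 cells over like libraries.

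Of 19 chaperonin and prefoldin genes 6 (31.6%, below the background of 36.4%) were higher in L1210 cells. They were led by Pfdn4 and H2-Ke2 (Pfdn6) at -0.94 and -0.92, neither of which passed in the fit adjusted for detected genes (adjusted p = 0.143 and 0.205). Of 37 proteasome genes 6 were higher in CD8+ T-cells and 2 were higher in L1210 cells. The 2 were Psmd3 and Psmb3, at -0.55 and -0.42, of which Psmd3 had -0.13 (adjusted p = 0.747) in the fit adjusted for detected genes and -0.15 (adjusted p = 0.392) over like libraries. The 6 included Psmb8 and Psmb9, the catalytic subunits of the immunoproteasome, and Psme1 and Psme2, its activator. Psmb8 had 913, 1323 and 2110 TPM in CD8+ lineages and 123, 624 and 783 TPM in L1210 lineages, without overlap (difference 0.89 ± 0.15, adjusted p = 1.41e-05), and Psmb9 differed by 1.47 ± 0.31 (adjusted p = 0.000235). Of 17 iron and heme genes 7 (41.2%, near the background of 36.4%) were higher in L1210 cells. Among them were the mitochondrial iron carrier Slc25a37 by 1.87 ± 0.32 (adjusted p = 1.22e-05) and the ferritin chain Fth1 by 1.09. The transferrin receptor Tfrc was higher by 1.00 ± 0.28 (adjusted p = 0.0048, and 0.236 in the fit adjusted for detected genes). The heme synthesis gene Fech was higher in L1210 cells by 1.18 ± 0.33 (adjusted p = 0.00454), and Ppox, which acts just before it, was higher in CD8+ T-cells by 0.87 ± 0.32 (adjusted p = 0.0278). In growth signalling 7 of 26 genes (26.9%) were higher in L1210 cells and 1 (3.85%) in CD8+ T-cells, both shares below the background. The kinases Pim1 and Pim2, both induced by cytokine signals, went opposite ways. Pim1 had 0, 10.1 and 33.4 TPM in CD8+ lineages and 46.3, 90.3 and 197 TPM in L1210 lineages, without overlap (difference -2.61 ± 0.35, adjusted p = 2.12e-07), and Pim2 had 0, 52.1 and 224 TPM against 0, 3.57 and 18.1 TPM (1.98 ± 0.51, adjusted p = 0.00228).

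The lists differed in how far they went with the number of detected genes, and that number differs between the types. As a description across lineages, which share the scale on which detection is counted, the mean of the amino acid list correlated with detected genes at r = 0.93 in CD8+ (n = 13) and 0.62 in L1210 lineages (n = 11), that of sterol synthesis at 0.87 and 0.70 and that of ribosome biogenesis at 0.79 and 0.58. The mitotic list had 0.60 and 0.67 and the ribosomal proteins -0.45 and 0.58. For all genes tested r was 0.97 in both. Of the 99 tested genes chosen for naming, some of which had no call on cell type alone, 21 lost their call in the fit adjusted for detected genes. Over like libraries, where fewer cells enter, 26 lost it, besides Gins2, whose direction also turned there. Among the 26 were Polr1b, Eif1a, Slc25a37, Slc36a4, Dctpp1, Fech and Ppox, with adjusted p values of 0.0762, 0.0505, 0.0554, 0.0539, 0.0879, 0.145 and 0.176. The spread between lineages was also wider in CD8+ T-cells, with the larger SD in 74 of 80 ribosomal protein genes, 59 of 65 ribosome biogenesis genes, 47 of 70 mitotic genes and 7366 of all 11272 genes.

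**Figure D4:**
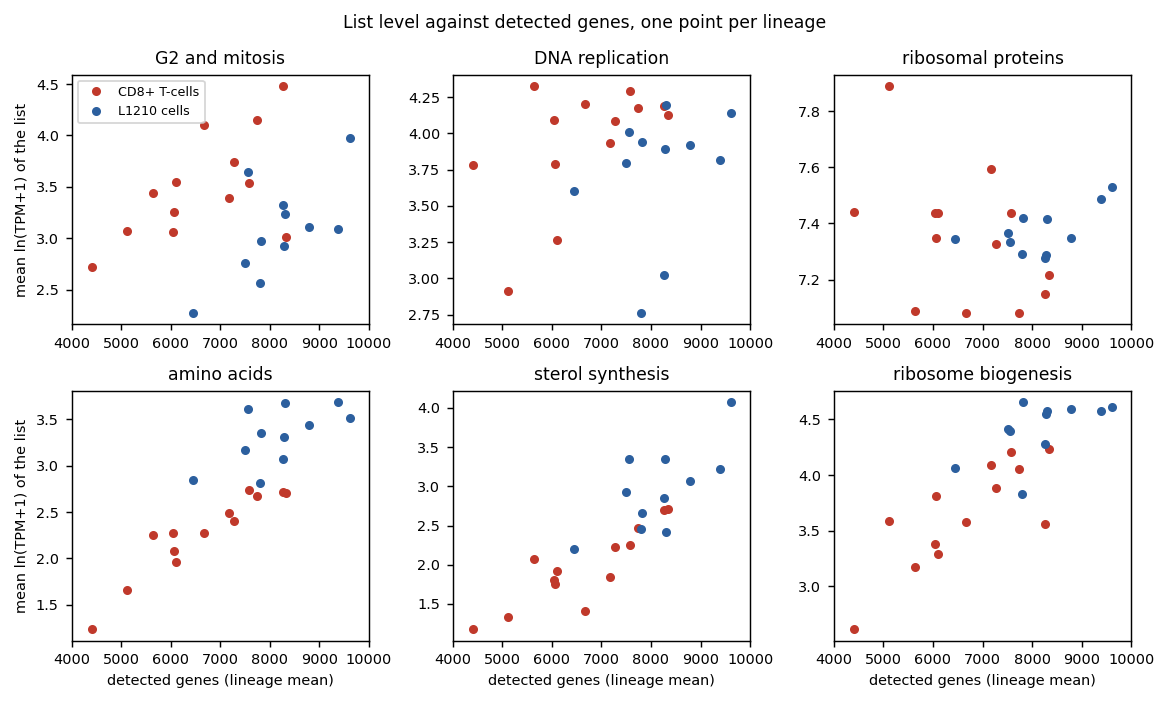
Mean ln(TPM+1) of 6 lists against the mean number of detected genes, 1 point per lineage, with CD8+ T-cells in red (n = 13) and L1210 cells in blue (n = 11). The amino acid list lies higher in L1210 lineages at equal detected genes. Ribosome biogenesis and sterol synthesis rise with detected genes in both types. In the mitotic list most CD8+ lineages lie above L1210 lineages of like detected genes, with some overlap.

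The detected genes themselves fell with hours in CD8+ lineages (r = -0.86, Spearman's rho = -0.84, n = 13) and not in L1210 lineages (r = 0.17, rho = 0.19, n = 11), given as a description. Whether the difference between the types depended on hours was tested as an interaction over the same lineages. It passed in 44 of 11272 genes (0.39%), in 43 of them with the lower slope in CD8+ T-cells, and 2220 genes had an unadjusted p under 0.05. Asns was the 1 gene among the 846 listed, with a slope of -1.69 per hour in CD8+ and 0.03 per hour in L1210 lineages (difference -1.71 ± 0.38, adjusted p = 0.0358). With detected genes as a further covariate 0 genes passed, Asns included. Of the 44 genes 9, named after their values were seen, were histone genes, among them Hist2h4, with slopes of 2.39 per hour in L1210 and -0.49 per hour in CD8+ lineages (adjusted p = 0.0126), and Hist1h1c, with 1.68 and -0.63 per hour (adjusted p = 0.0156). Histone copies are near identical in sequence and mostly lack the poly(A) tail that the library method captures, so their levels are uncertain.

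**Figure D5:**
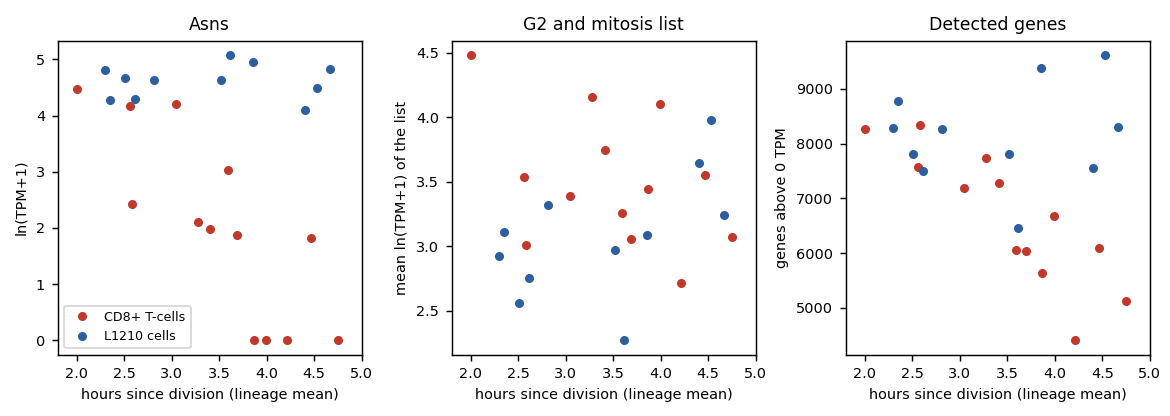
Lineage means against mean hours since division for Asns (ln(TPM+1)), the G2 and mitosis list (mean ln(TPM+1)) and the number of detected genes, with CD8+ T-cells in red (n = 13) and L1210 cells in blue (n = 11). Asns is between 4.10 and 5.08 in every L1210 lineage and at 0 in 4 CD8+ lineages with mean times of 3.87 to 4.75 h, and detected genes are lower in late CD8+ lineages.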

How the data were processed

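Single cells released from the trap array gave Smart-Seq2 libraries, sequenced in paired ends. The authors deposited 1 table of TPM for 23420 gene names in 194 libraries, estimated with RSEM on the mm10 build. The submitters' processing notes also name TopHat2, and RSEM 1.2.3. TPM sums to 1000000 in each library, is not log-transformed and keeps no read depth, so no counting interval was computed, and 27 gene names had become dates. A scale with a fixed total lowers every gene when a few genes take more of it, and copying a single cell leaves many low genes at 0.

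Lineages were built from sister and cousin labels that name each other, and 3 labels without a return were not used. Genes above 1 in ln(TPM+1) in more than 10% of the cells of either type were tested. Lineage means were compared with limma 3.58.1 (R 4.3.3, empirical Bayes with trend, 2-sided, Benjamini-Hochberg over all 11272 genes). Single values were compared by permutation tests with 100000 resamples. The dependence on hours was an interaction of cell type and the lineage's mean hours. Genes with 0 of 32 cells above 0, as Ldhb, Ggh, Slc36a4 and Hadh, enter as they are, with no fold given. They passed the filter only through the CD8+ T-cells, so their p values add little to the counts of cells. Likewise Cdkn2b, Idh1, Scd1, Slc1a4, Adssl1 and Chac1 passed it only through the L1210 cells. The scripts were tested on simulated data. The members and lists were chosen with earlier results of these data known. Named genes were 30 fixed names and, in each list, the called genes with the 2 largest differences per direction; those named beyond them are examples of counts. Alternatives were 20 planned settings and 4 added after seeing the data, and, for the hours, 1 further covariate. Promoters are the RefSeq table of GRCm38.p6, of which mm10 is the same assembly, read with Python 3.11.15. Promoter matches are counted in genes with 1 or more matching promoters. Results for a few genes are not reported here.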

Additional observations from a re-analysis of the deposited data

Results flagged for a closer look

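The difference between CD8+ T-cells and L1210 cells changed with hours since division in 44 genes, by the test of the interaction itself. Among the genes of the lists it was Asns, with a slope difference of -1.71 per hour (CD8+ minus L1210, adjusted p = 0.0358 in limma). Detected genes also fell with hours in CD8+ lineages, and with them as a further covariate 0 genes passed. The number of detected genes and the hours go together in CD8+ T-cells over the 13 lineages, and their parts in the result were not tested separately.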

How the results depend on the processing

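The main counts, 1010 genes higher in CD8+ T-cells and 4101 higher in L1210 cells, moved by more than 1.5 times under these settings. Higher in CD8+ T-cells were 669 genes with a filter at 50% of cells, 645 at 2.5 to 4.5 h, 472 at 3.5 to 5.0 h, 542 for CD8+ T-cells at 2.0 to 4.0 h against L1210 cells at 3.0 to 5.0 h, 1573 with all cells with a recorded time, 315 against a 2-fold difference and 200 among genes above 0 in more than 90% of cells. Higher in L1210 cells were 2447 at 2.5 to 4.5 h, 1602 at 2.0 to 3.5 h, 2705 at 3.5 to 5.0 h, 1677 for the shifted windows, 1042 against a 2-fold difference, 615 among the genes above 0 in more than 90% of cells, 1702 with detected genes as a covariate, 1944 with 6500 to 8500 detected genes and 1563 with median-ratio scaling and that covariate together. The share of calls higher in CD8+ T-cells, 19.8%, became 41.6, 30.3 and 45.1% under the last 3 of these and 36.7% at 2.0 to 3.5 h. The shorter windows and the stricter filters hold fewer cells or genes, and otherwise the cause was not tested.

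Genes whose difference depended on hours, 44, were 6 with a pseudocount of 10, 16 with the filter at 50%, 20 with no filter and 0 with detected genes as a covariate. The difference in detected genes, -1516, was -1249 at 2.5 to 4.5 h, -408 at 2.0 to 3.5 h and -1087 for the shifted windows, past the threshold in none of them. The Rn45s share, 0.249 percentage points higher in CD8+ T-cells and not past the threshold, turned to -0.867 at 2.5 to 4.5 h, -0.359 at 3.5 to 5.0 h, -1.16 with all cells with a time and -0.246 with lineages of 2 or more cells. The median of the pentose phosphate list turned to 0.0174 with detected genes as a covariate and to 0.0908 with scaling and that covariate, that of translation factors to 0.0495 under the latter, and that of the folding list to 0.0302 with 6500 to 8500 detected genes. Of the named genes Cdkn2c turned to 0.24 at 2.0 to 3.5 h, and Gins2 to 0.33 there and to 0.0895 with 6500 to 8500 detected genes. No paired analysis was possible because the numbers in the labels are serial numbers of cells and the lineage means carry none.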
